A study of Homo sapiens with 17 samples.

Results

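PABPN1, PABPC1, PABPC4, PAIP1 and PAIP2 encode the nuclear poly(A)-binding protein, a pair of cytoplasmic poly(A)-binding proteins and a pair of PABP-interacting proteins. The 5 genes were taken by name from the 18869 genes with deposited values, and each was found under a single gene identifier. The transcripts of these genes were examined for how strongly ribosomes marked them, and how abundant they were, in RNA that copurified with PABPN or with PABPC.

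The study applied Ribo-STAMP, in which the C-to-U editing enzyme APOBEC1 is carried to RNA by the small-subunit protein RPS2, to HEK293T cells, an established human line of embryonic kidney origin. RPS2-STAMP lines expressed the RPS2 and APOBEC1 fusion, and Control-STAMP lines expressed APOBEC1 without RPS2, in both cases from a stable lentiviral insertion switched on for 24 h by doxycycline at 50 ng/ml. Cells were crosslinked with formaldehyde, and RNA was sequenced from the Input, from an immunoprecipitation (IP) with an antibody to PABPN and from an IP with an antibody to PABPC. The paper's text states that cytoplasm was used for the IPs and describes the Input as cytoplasmic, whereas the sample labels do not mention a fractionation. There were 17 samples. RPS2-STAMP contributed 9, 3 per fraction, and Control-STAMP contributed 8, of which 3 were Input, 3 PABPN IP and 2 PABPC IP.

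PABPN1 binds poly(A) tails as they are made in the nucleus and stimulates poly(A) polymerase. In the cytoplasm PABPC1 and its paralog PABPC4 cover the tail, and PABPC1 contacts the cap-binding complex through eIF4G, which favors translation and protects the mRNA. PAIP1 binds PABPC1 and stimulates translation, whereas PAIP2 displaces PABPC1 from poly(A) and represses it, and PABPC1 also limits translation of its own mRNA through an A-rich element in the 5′ leader.

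PAIP1 and PAIP2 share a peptide, PAM2, that docks into the MLLE domain at the C-terminal end of PABPC1, and its coding sequences are shown because the peptide is a point of contact between the PAIP proteins and PABPC1. A strict core of 10 residues was searched in the annotated coding sequences of 13441 protein-coding genes: leucine, any 2 residues, asparagine, alanine, any residue, glutamate, phenylalanine, any residue and proline. It was found in 4 genes (0.0298%), namely PAIP1, PAIP2, ATXN2 and ATXN2L. The capitals below mark the codons of the 6 fixed residues, and each sequence is written 5′ to 3′ on the coding strand.
PAIP1: CTGtctgtgAATGCCcctGAATTTtacCCT
PAIP2: CTGaatccaAATGCAaagGAGTTTgttCCT
ATXN2: TTGaatcccAATGCAaagGAGTTCaacCCA
ATXN2L: TTGaaccctAATGCTaagGAGTTCaatCCT
On hg38, with GENCODE release 44, the PAIP1 core lay at chr5:43555854-43555883 on the minus strand, in exon 2, and encoded residues 128 to 137 of 479. The PAIP2 core lay at chr5:139368745-139368774 on the plus strand, in exon 4, and encoded residues 111 to 120 of 127. The ATXN2 core was in exon 16 at chr12:111486776-111486805 on the minus strand, and the ATXN2L core in exon 15 at chr16:28833458-28833487 on the plus strand. PAM2 peptides of other proteins vary at these positions, so a gene without a match may still encode the peptide.

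Editing is given as normalized EPKM, edits normalized for transcript length and sequencing depth, less the editing seen in the control condition. Abundance is given as average TPM, so both are scaled by length. EPKM so defined is not divided by abundance. Across the 9607 protein-coding genes described below, the Spearman correlation of EPKM with TPM was 0.53 in the Input, 0.25 in the PABPN IP and 0.45 in the PABPC IP. Values given with PABPN or with PABPC are those of the respective IP. The authors' table holds 1 EPKM and 1 TPM for each gene and fraction. Values of single replicates and read or edit counts were not analysed here, so no difference between fractions has a replicate check, and the number of edits behind each value and its error are unknown. The 5 genes were compared with the 9607 protein-coding genes (PCGs) whose TPM reached 5 or more in each IP, a set to which all 5 belonged. The median EPKM of these PCGs was 0.0273 in the Input, 0.0334 in the PABPN IP and 0.0501 in the PABPC IP, and 2100, 2605 and 1676 PCGs, respectively, were listed at 0.

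In the Input, the EPKM of all 5 genes exceeded the PCG median, and 4 of them also exceeded the upper quartile of 0.0736. In the PABPN IP, 2 genes were above the median, and both were above the upper quartile of 0.0758. In the PABPC IP, 3 genes were above the median, 2 were above the upper quartile of 0.0992 and 1 was listed at 0. In TPM, all 5 exceeded the PCG median in every fraction. The members were thus all above the PCG median of EPKM in the Input and fell on both sides of it in the IPs.

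**Figure D1:**
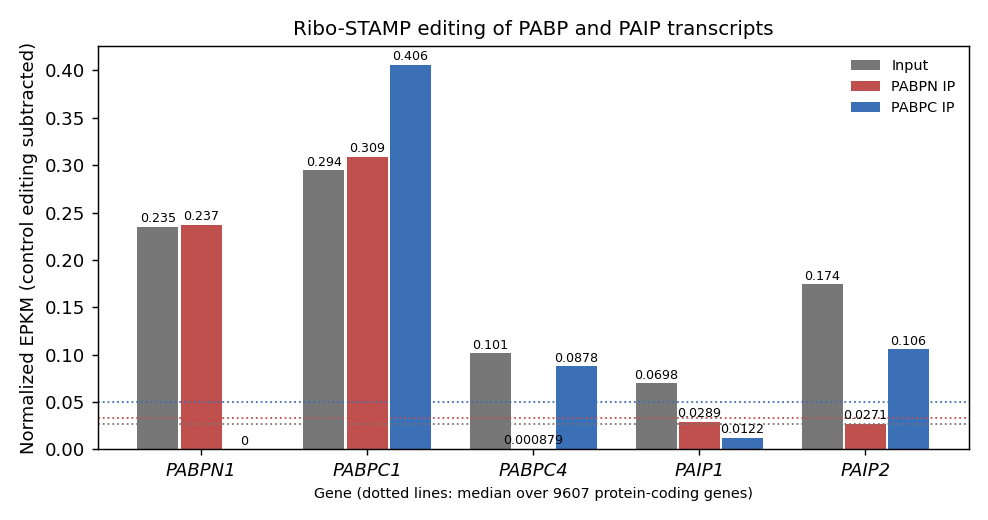
Normalized EPKM (vertical axis, from 0) of each gene in the Input, PABPN IP and PABPC IP, as 1 pooled value per bar without an error, with dotted lines at the PCG medians of the 3 fractions. PABPC1 was edited in each fraction, whereas PABPN1 was listed at 0 in the PABPC IP and PABPC4 was at 0.000879 in the PABPN IP.

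PABPN1 (ENSG00000100836) lies on chromosome 14 of hg38 from 23321457 to 23326163 on the plus strand. Its EPKM was 0.235 in the Input and 0.237 with PABPN, and it was listed at 0 in the PABPC IP. The first pair of values lay at the 94.6th and 98.1st percentiles of PCGs, and at the 61.6th and 91.7th among PCGs of the same TPM decile. Editing of the PABPN1 transcript was therefore nearly equal in the Input and the PABPN IP, and no fold can be given against the PABPC IP, where the difference from the PABPN IP was -0.237 EPKM. On the log2(EPKM + 0.01) scale that difference was -4.63, a size set by the pseudocount.

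The TPM of PABPN1 was 101 in the Input, 355 in the PABPN IP and 272 in the PABPC IP, where it lay at the 94.2nd percentile. Its transcript was thus 1.30-fold more abundant in the PABPN IP than in the PABPC IP, and on the log2 scale centred on the median PCG the difference was -0.19. Among the 961 PCGs in the highest decile of TPM in the PABPC IP, which includes PABPN1, 104 (10.8%) were listed at 0 there and the median EPKM was 0.134. Relative to the Input, the centred log2 TPM ratio of PABPN1 was 0.67 in the PABPN IP and 0.44 in the PABPC IP, comparisons that share the Input values.

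PABPN1 shares exons with a readthrough gene. Of the exonic bases of PABPN1, 39.3% were also exonic in BCL2L2-PABPN1 on the same strand, which joins PABPN1 to the upstream gene BCL2L2. BCL2L2-PABPN1 was listed at an EPKM of 0 in the Input and the PABPN IP and at 0.00798, below the pseudocount, with PABPC, and had a TPM of 18.0, 89.0 and 49.2 in the Input, PABPN IP and PABPC IP. BCL2L2 itself, looked up after these values were seen, had an EPKM of 0.00805, 0.112 and 0 in the same order. The paper's text describes an annotation for read counting without overlapping regions and readthrough transcripts. This readthrough gene nonetheless has a TPM, so how reads and edits of the shared exons were assigned is unclear. The part of shared exons in the zero of PABPN1 was not tested.

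PABPC1 (ENSG00000070756), the main cytoplasmic poly(A)-binding protein gene, lies on chromosome 8 from 100685816 to 100722809 on the minus strand. Its EPKM was 0.294 in the Input, 0.309 in the PABPN IP and 0.406 in the PABPC IP, the highest of the 5 genes in each fraction. These values lay at the 96.3rd, 99.1st and 99.0th percentiles of PCGs. Among the members, PABPC1 alone had higher editing in both IPs than in the Input, and its fractions were close together, with ratios of 1.05 for the PABPN IP over the Input, 1.38 for the PABPC IP over the Input and 1.31 for the PABPC IP over the PABPN IP.

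The TPM of PABPC1 was 466 in the Input, 1115 in the PABPN IP and 1305 in the PABPC IP. It was the most abundant of the 5 in every fraction, at the 98.6th, 99.6th and 99.1st percentiles of PCGs. Its abundance in the PABPC IP was 1.17-fold that in the PABPN IP, or 0.42 on the centred log2 scale. Within the highest TPM decile of each fraction, near whose upper end PABPC1 lay, its EPKM was at the 70.8th percentile in the Input, the 95.5th in the PABPN IP and the 91.6th in the PABPC IP.

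PABPC4 (ENSG00000090621), on chromosome 1 from 39560709 to 39576790 on the minus strand, encodes a cytoplasmic paralog whose coding sequence was identical to that of PABPC1 at 69.8% of aligned positions. Its EPKM was 0.101 in the Input, 0.000879 in the PABPN IP and 0.0878 in the PABPC IP, at the 82.3rd, 27.7th and 70.1st percentiles. Editing of PABPC4 was thus similar in the Input and with PABPC, with a ratio of 0.866, and close to 0 in the PABPN IP. On the log2(EPKM + 0.01) scale it was 3.17 higher with PABPC than with PABPN, and the ratio of the PABPN IP to the Input was -3.36. The size of both depends on the pseudocount, since the PABPN IP value lay below it. In the PABPN IP 27.1% of PCGs, and 22.9% of those in the TPM decile of PABPC4, were listed at 0, so PABPC4 lay just above the zeros. Among PCGs of its own TPM decile in each fraction, PABPC4 was at the 54.6th, 23.5th and 40.7th percentiles of EPKM.

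Abundance of PABPC4 ran the other way. Its TPM was 66.2 in the Input, 179 in the PABPN IP and 105 in the PABPC IP, so that the transcript was 1.70-fold more abundant in the PABPN IP than in the PABPC IP, with a centred log2 difference of -0.57. The lowest editing of this transcript was therefore found in the fraction where its TPM was highest. This TPM sums exonic and intronic TPM, and the intronic part was not examined. Of the 605 PCGs with a PABPN IP TPM at least that of PABPC4, 131 (21.7%) had a PABPN IP EPKM no higher than that of PABPC4, a count made after its values were seen.

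**Figure D2:**
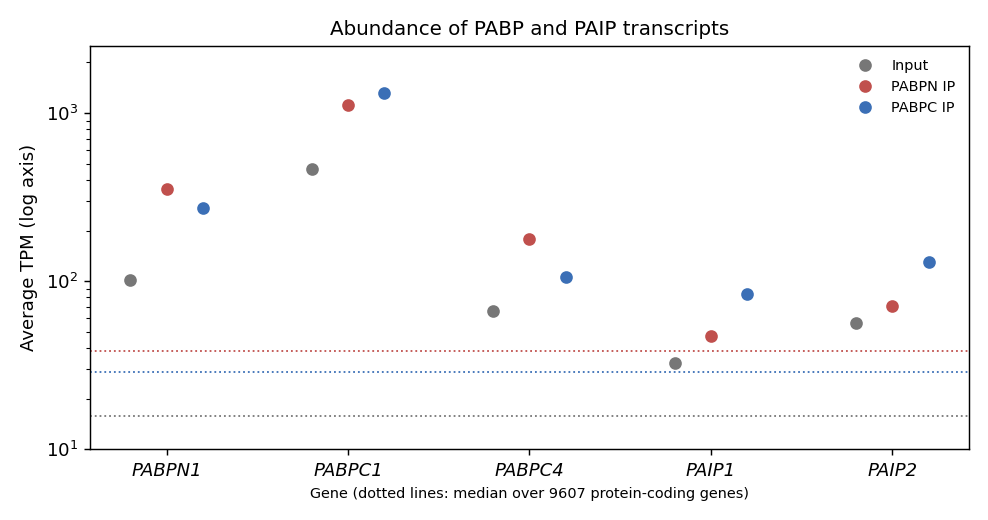
Average TPM (log axis) of each gene in the Input, PABPN IP and PABPC IP, as 1 pooled value per point without an error, with dotted lines at the PCG medians. PABPN1 and PABPC4 had their highest TPM in the PABPN IP, and PABPC1, PAIP1 and PAIP2 in the PABPC IP.

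PAIP1 (ENSG00000172239), on chromosome 5 from 43526267 to 43557758 on the minus strand, encodes the partner that stimulates translation. Its EPKM was 0.0698 in the Input, 0.0289 in the PABPN IP and 0.0122 in the PABPC IP. These values lay at the 73.7th, 46.7th and 24.5th percentiles. Editing of PAIP1 was highest in the Input, 2.41-fold above the PABPN IP and 5.74-fold above the PABPC IP, and it was 2.38-fold higher in the PABPN IP than in the PABPC IP, which became -0.81 on the log2(EPKM + 0.01) scale because the pseudocount shrinks differences between low values.

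The TPM of PAIP1 was 32.6 in the Input, 47.1 in the PABPN IP and 84.1 in the PABPC IP, the lowest of the 5 genes in each fraction. Its transcript was 1.78-fold more abundant in the PABPC IP than in the PABPN IP, and the centred log2 difference was 1.03. PAIP1 thus had its lowest EPKM in the fraction with its highest TPM. Among PCGs of its own TPM decile its EPKM lay at the 59.0th percentile in the Input, the 43.1st in the PABPN IP and the 18.9th in the PABPC IP.

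PAIP2 (ENSG00000120727), on the same chromosome from 139341587 to 139369720 on the plus strand, encodes the partner that represses translation. Its EPKM was 0.174 in the Input, 0.0271 in the PABPN IP and 0.106 in the PABPC IP, at the 91.4th, 45.5th and 77.3rd percentiles. Editing was 6.42-fold higher in the Input than in the PABPN IP and 1.65-fold higher in the Input than in the PABPC IP. PAIP2 was 3.89-fold more edited in the PABPC IP than in the PABPN IP, or 1.64 on the log2(EPKM + 0.01) scale, so the PAIP genes differed in the direction of this comparison.

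In abundance the PAIP genes were alike. The TPM of PAIP2 was 56.1 in the Input, 71.3 in the PABPN IP and 130.4 in the PABPC IP, and it was 1.83-fold more abundant in the PABPC IP than in the PABPN IP. Within its own TPM deciles, PAIP2 lay at the 80.0th, 36.4th and 49.6th percentiles of EPKM in the Input, PABPN IP and PABPC IP, so its editing with PABPC was near the middle of PCGs in that decile. Its centred log2 TPM difference of 1.06 was close to the 1.03 of PAIP1. Relative to the Input, the centred log2 ratio in the PABPN IP was -0.61 for PAIP1 and -0.79 for PAIP2, although both ratios were above 0 before centring, at 0.53 and 0.35.

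The order of the fractions by EPKM therefore differed among the members. For PABPC4 and PAIP2 the Input was highest, the PABPC IP next and the PABPN IP lowest. PAIP1 had the Input highest and the PABPC IP lowest, PABPC1 had the PABPC IP highest and the Input lowest, and PABPN1 had nearly equal values in the Input and the PABPN IP. By TPM the Input was lowest for each of the 5 genes, as was the PCG median, which was 15.8 in the Input, 38.4 in the PABPN IP and 28.9 in the PABPC IP.

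**Figure D3:**
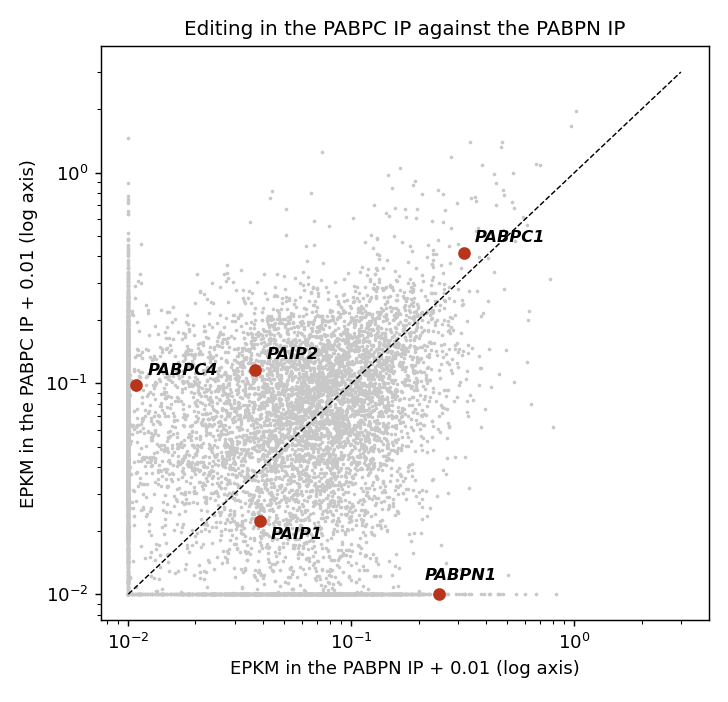
EPKM + 0.01 in the PABPC IP against the PABPN IP (both log axes) for 9607 PCGs in grey, with the 5 genes in red and a dashed line of equal values. PABPN1 lies among the PCGs listed at 0 in the PABPC IP, PABPC1 near the line at high values, and PABPC4 and PAIP2 above the line.

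Counted against all PCGs, the members spread over both directions. On the log2(EPKM + 0.01) scale, 2 of the 5 genes (PABPC4 and PAIP2) exceeded their PABPN IP value by 2-fold or more in the PABPC IP, compared with 36.3% of PCGs. In the other direction, 1 gene (PABPN1) was 2-fold or more higher in the PABPN IP, compared with 21.1% of PCGs. The median log2 ratio was 0.38 over the members and 0.32 over PCGs, so neither the counts nor the median set the members apart. PAIP1, at -0.81, also passed the 2-fold limit in the PABPN direction when ratios were centred on the PCG median. Under that centring 2442 of the 9607 PCGs passed in the PABPN direction and 2982 in the PABPC direction. With a pseudocount of 0.1 only PABPN1 (-1.75) passed it in either direction, beside 356 PCGs in the PABPN direction and 865 in the PABPC direction.

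The comparisons with the Input use the same Input values. Editing in the PABPC IP exceeded the Input by 2-fold or more for 0 of the 5 genes, against 35.1% of PCGs, and the Input exceeded the PABPC IP by as much for 2 (PABPN1 and PAIP1), against 19.5%. Between the PABPN IP and the Input, 0 genes were higher in the PABPN IP, against 28.4% of PCGs, and 3 (PABPC4, PAIP1 and PAIP2) were higher in the Input, against 29.6%. The members' median log2 ratio to the Input was -0.67 for the PABPC IP and -1.04 for the PABPN IP, beside PCG medians of 0.30 and 0. With a pseudocount of 0.1, PABPN1 (-1.74 for the PABPC IP) and PAIP2 (-1.11 for the PABPN IP) still passed the limit and the others did not. PCGs were not counted at that pseudocount for the comparisons with the Input, so these calls have no share beside them.

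By abundance, a centred log2 TPM difference of at least 0.5 was counted. PAIP1 and PAIP2 (2 of 5) were higher with PABPC than with PABPN, against 30.4% of PCGs, and PABPC4 (1 of 5) was higher in the PABPN IP, against 31.5%. Between the PABPC IP and the Input, 0 genes were higher in the PABPC IP, against 8.37% of PCGs, and 0 were higher in the Input, against 18.1%. Between the PABPN IP and the Input, 1 gene (PABPN1) was higher in the PABPN IP, against 24.5%, and 2 (PAIP1 and PAIP2) were higher in the Input, against 21.6%. The calls of PABPC4 and PABPC1 lay near the limit and changed with the genes used for centring. With the wider set of 11327 PCGs whose TPM reached 1 in all 3 fractions, the PABPC IP to PABPN IP ratio was -0.46 for PABPC4, which then missed the limit, and 0.54 for PABPC1, which then passed it, so the members' counts became 3 and 0, beside 3352 and 2666 PCGs in place of 2919 and 3028. PABPC1 also passed it for the PABPC IP over the Input, at 0.55 in place of 0.496, so that count became 1, beside 1102 PCGs in place of 804.

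These abundance counts depend on the centring, since the median log2 TPM ratio of PCGs was 0.99 for the PABPC IP over the Input, 1.14 for the PABPN IP over the Input and -0.19 for the PABPC IP over the PABPN IP. Without centring, 2213 PCGs were higher with PABPC and 3616 with PABPN, in place of 2919 and 3028, and 2 and 1 members passed. Without centring, all 5 genes were higher in the PABPC IP than the Input, as were 7813 PCGs with 85 lower, in place of 804 and 1743. For the PABPN IP over the Input, 4 of the 5 were higher without centring, as were 8125 PCGs with 56 lower, in place of 2358 and 2071.

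The remaining genes of the PABP family did not pass the TPM limit. Of 7 further family genes looked up, 3 were listed, and 0 reached a TPM of 5 in each IP. PABPC1L had a TPM of 2.75 in the Input, 43.3 with PABPN and 2.81 with PABPC, and an EPKM of 0.0230, 0.0859 and 0.0113 in that order. PABPC3, a retrogene whose coding sequence was identical to that of PABPC1 at 94.5% of aligned positions, reached an EPKM of 0.107 with PABPN and was at 0 elsewhere, with a TPM of at most 1.71. Reads of such near-identical copies can be split with PABPC1, so both values are uncertain. PABPC4L, listed without a TPM, had an EPKM of 0.0176, 0.0215 and 0.0121 in the Input, PABPN IP and PABPC IP.

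The paralog of PAIP2 had a lower EPKM than PAIP2 in each fraction, and also a lower TPM. PAIP2B, whose coding sequence was identical to that of PAIP2 at 67.6% of aligned positions, had an EPKM of 0.0313 in the Input and 0.010 with PABPC, and stood at 0 with PABPN. Its TPM was 7.50, 19.3 and 16.7 in the Input, PABPN IP and PABPC IP. Both PAIP2 and PAIP2B thus had their lowest EPKM in the PABPN IP, although for PAIP2B the IPs differed by only about the size of the pseudocount. Of the pseudogenes of the members, PABPC1P3 was above 0 only in the PABPN IP, at 0.0995, as was PAIP1P1 at 0.0116, and PABPN1P1 was listed at 0 in each fraction.

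Factors that act with PABPC1 at the cap and at the stop codon gave a background for the members. Of 8 cap-binding and closed-loop factors, 2 were at least 2-fold more edited in the PABPC IP than in the PABPN IP. In the other direction there were 2, and 4 lay between, with a median log2 ratio of -0.39. Of PCGs, 36.3% passed in the PABPC direction and 21.1% in the PABPN direction. EIF4B, a cofactor of the eIF4A helicase, had EPKM values of 0.376 with PABPC and 0.134 with PABPN, and EIF4H had 0.0850 and 0.0258. EIF4A2 and EIF4E, which encodes the cap-binding protein, were listed at 0 in the PABPC IP, as PABPN1 was, with 0.128 and 0.0519 in the PABPN IP. Of the 3 measured termination factor genes, GSPT1, whose product binds the PABPC1 MLLE domain, was higher with PABPC (0.266) than with PABPN (0.0512), and ETF1 (0.0708 and 0.127) and ABCE1 (0.165 and 0.141) were within 2-fold on the log2(EPKM + 0.01) scale, while GSPT2 was listed at 0 in each fraction.

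The PAIP genes were set beside genes for 15 other proteins with a PAM2 or MLLE domain. In TPM, 0 of the 15 were higher in the PABPC IP, against 30.4% of PCGs, and 12 were higher in the PABPN IP, against 31.5%, with a median centred log2 difference of -1.04. PAIP1 and PAIP2 were at 1.03 and 1.06. In editing, 4 were higher with PABPC, against 36.3% of PCGs, and 4 with PABPN, against 21.1%, with a median of 0.03. TOB2 (0.175 with PABPC and 0.0167 with PABPN) and LARP1 (0.149 and 0.0256) were at one end, and TNRC6C (0.00185 and 0.0987) and TNRC6A (listed at 0, and 0.0603) at the other. The difference between the PAIP genes and this list was not tested.

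Genes that work at the poly(A) tail were compared with PABPN1 and PABPC1. Of 18 cleavage and polyadenylation factors, 5 were more edited with PABPC and 6 with PABPN, with a median of -0.44. In abundance, 1 was higher with PABPC and 9 with PABPN. Among PCGs, the shares in these directions were 36.3% and 21.1% for editing and 30.4% and 31.5% for abundance. CPSF1 and CPSF4 were listed at 0 in the PABPN IP and at 0.206 and 0.166 in the PABPC IP, the reverse of PABPN1, whereas CPSF6 (0.0205 with PABPC and 0.108 with PABPN) and PCF11 (0.00944 and 0.0631) were lower in the PABPC IP. Of 13 deadenylase subunits, 5 were more edited with PABPC and 2 with PABPN, with a median of 0.76, and 2 and 6 were more abundant in these IPs. CNOT10 (0.0584 with PABPC and listed at 0 with PABPN) and CNOT6 (0.162 and 0.0260) had the highest ratios, and CNOT3 and CNOT2, listed at 0 in the PABPC IP, the lowest.

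PABPC1 mRNA begins with a terminal oligopyrimidine (TOP) tract, a feature of mRNAs for the translation machinery, so it was set beside other non-ribosomal TOP mRNAs. Of 12 such genes measured among 13, 10 were more abundant with PABPC and 0 with PABPN, and the median centred log2 TPM difference of 1.56 lay above the 0.42 of PABPC1. In editing, 4 were higher with PABPC and 3 with PABPN, with a median log2 ratio of 0.41, near the 0.38 of PABPC1. Editing of single TOP mRNAs varied, from EEF2 (0.472 with PABPC and listed at 0 with PABPN) and RACK1 (0.663 and 0.0408) to EEF1D (0.0161 and 0.0620) and EEF1B2 (listed at 0, and 0.141). Over all PCGs the editing counts were 3487 and 2024, and the abundance counts 2919 and 3028. With a pseudocount of 0.1 the editing counts fell to 2 or fewer in each direction for the cap-binding, PAM2 or MLLE, cleavage and polyadenylation, and deadenylase lists. For the TOP list they became 4 and 1. At that pseudocount 865 of the 9607 PCGs passed in the PABPC direction and 356 in the PABPN direction.

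**Figure D4:**
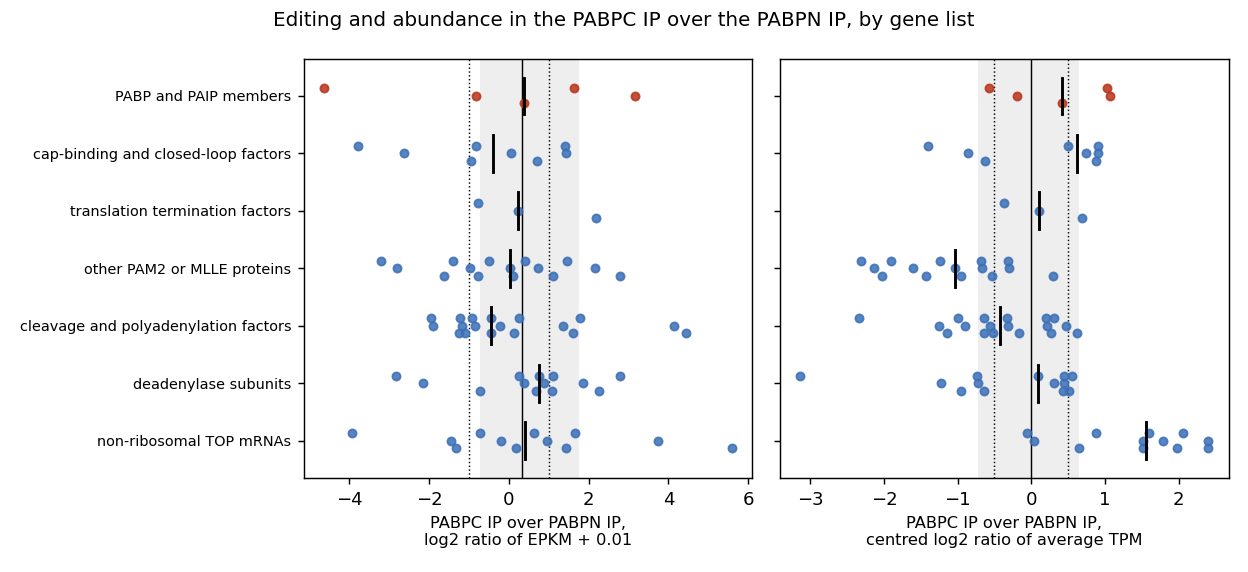
Log2 ratio of the PABPC IP over the PABPN IP for EPKM + 0.01 (left) and for average TPM centred on the PCG median (right), with 1 point per gene, short black bars at list medians, the PCG quartiles shaded and dotted lines at the limits used for counting. The members (red) span both directions in editing, from -4.63 for PABPN1 to 3.17 for PABPC4.

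The PCGs with values most like those of each member were found by the distance over 6 values, the log2 EPKM and log2 TPM of the 3 fractions. RPL21 was nearest to PABPC1, at a distance of 0.460 and with EPKM of 0.285, 0.302 and 0.344 in the Input, with PABPN and with PABPC, and RPL5 and RPL15, both for ribosomal proteins, followed. GLE1 was nearest to PAIP2 (0.317), before UQCRC2 and TXNRD1, and ZFP91 was nearest to PABPC4 (0.519), before PABIR2 and ATXN7L3B. The nearest to PAIP1 were MCUR1 (0.820), CETN2 and CMTM7, and those to PABPN1 were SMIM30 (1.12), SSR3 and RAC1, each listed at 0 in the PABPC IP. Among the members themselves the closest pair was PABPC4 and PAIP2 (2.37), followed by PAIP1 and PAIP2 (2.91).

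Transcript features were taken from the canonical transcripts of the annotation and differed among the members. PAIP2 had the shortest coding sequence, 384 bases against a PCG median of 1323, and cytosine, the base that APOBEC1 edits, made up 16.4% of it, the 1.99th percentile of PCGs and below the median of 25.3%. Its EPKM in the Input lay at the 91.4th percentile, and a relation of EPKM to length or cytosine content was not tested. PABPC1 and PABPC4 had coding sequences of 1911 and 1983 bases and short 3′ UTRs of 445 and 320 bases, against a PCG median of 1349, while PABPN1 had a coding sequence of 921 bases and a 3′ UTR of 877, and PAIP1 had 1440 and 1109. Other annotated exons, on either strand, covered 21.0% of the exonic bases of PAIP2 and 12.2% of those of PABPC4, 0.597% for PABPC1 and 0% for PAIP1. No gene overlapped PAIP2 on its own strand, and only SNORA55 overlapped PABPC4 on its own strand. The paper's text states that overlapping regions were removed from the annotation for read counting.

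Marker genes described the fractions. MALAT1, a nuclear RNA, had a TPM of 55.0 in the Input, 208 in the PABPN IP and 10.3 in the PABPC IP, and NEAT1 had 4.27, 55.8 and 3.25. In the same order, the EPKM of MALAT1 was 0.0880, 0.0214 and 0.00451, and that of NEAT1 was 0.0128, 0 and 0.00495. The Input EPKM of this nuclear RNA, MALAT1, thus exceeded the PCG upper quartile of 0.0736 and the 0.0698 of PAIP1. The cytoplasmic mRNAs ACTB (1891, 1609.9 and 3819) and GAPDH (2463, 1863 and 4961) were lowest in the PABPN IP. PABPN1 and PABPC4 had their highest TPM in the PABPN IP, as the median PCG did. On the centred log2 scale the PABPC IP to PABPN IP difference was -0.19 for PABPN1 and -0.57 for PABPC4, against -4.14 for MALAT1. Of 7 markers of other cell types, 1 was listed, the fibroblast collagen gene COL1A1, with a TPM of 1.90, 4.42 and 2.15.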

How the data were processed

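The 17 samples comprised Input and both kinds of IP RNA. The submitters' processing notes name STAR, hg38 and featureCounts 2.0.2. The deposited editing signal, normalized EPKM, was made by the authors from edits above a confidence score, less the editing of the control condition. The treatment of negative differences and the pooling of replicates are not stated. The authors' deposited TPM is an average per fraction of exonic plus intronic TPM. Per the paper's text, counting used a modified GENCODE release 34 annotation without overlapping regions and readthrough transcripts. The readthrough gene BCL2L2-PABPN1 nonetheless has a TPM, and the samples in each average are not stated. Because each value is pooled, no test was run.

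From these values, percentiles among PCGs whose TPM reached 5 or more in each IP, log2 ratios of EPKM + 0.01 and log2 TPM ratios centred on the PCG median were computed. Percentiles count tied values as lying midway. Limits for counting were 2-fold in EPKM and 0.5 in centred log2 TPM. Distances used log2(EPKM + 0.01) and log2(TPM + 0.5). Named genes were the members, their paralogs and related loci, markers, the 3 nearest PCGs of each member, the 4 termination factor genes, and the 2 highest and 2 lowest genes by EPKM ratio of each longer list. BCL2L2 and the genes listed at 0 alongside PABPN1 were named after their values were seen. ATXN2 and ATXN2L were named through the PAM2 search. The members and lists were chosen with earlier results of these data known. The counting was tested on simulated data. Gene models came from GENCODE release 44 on hg38, where 9601 of the 9607 PCGs had a canonical coding transcript. Alternatives changed the pseudocount, the centring and the reference genes. The work was done with Biopython 1.88, matplotlib 3.10.9, pandas 2.3.3, NumPy 2.4.6 and Python 3.11.15.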

Additional observations from a re-analysis of the deposited data

How the results depend on the processing

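No paired analysis was possible because single replicates have no columns of their own, and leaving out a replicate was not run for the same reason. The methods give read numbers for the STAMP libraries as a whole, but counts per gene were not analysed here, so the precision of low EPKM values cannot be given. Values were counted as moved when they changed by over 1.5 times, or over 10 points for percentiles. Of 118 values under alternatives, 74 did not move, 42 moved and 2 changed sign. Moved values not given below were percentiles, mainly within TPM deciles, and counts within the lists.

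With a pseudocount of 0.1, log2 EPKM ratios of the PABPC IP to the PABPN IP were -1.75 for PABPN1, 0.90 for PABPC4, -0.20 for PAIP1 and 0.69 for PAIP2, so PABPC4 and PAIP2 no longer passed 2-fold. Ratios of the PABPC IP to the Input were -1.74 for PABPN1 and -0.60 for PAIP1, and of the PABPN IP to the Input -0.997 for PABPC4, -0.40 for PAIP1 and -1.11 for PAIP2, of which PABPC4 and both PAIP1 values no longer passed. For the PABPC IP against the PABPN IP, 865 PCGs passed 2-fold in the PABPC direction and 356 in the PABPN direction. With a pseudocount of 0.001, PABPN1 was at -7.90 and PABPC4 at 5.56 for the PABPC IP over the PABPN IP. PAIP1 passed 2-fold there (-1.19) and, at the pseudocount of 0.01, with centring (-1.13).

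Without centring, log2 TPM ratios of the PABPC IP to the Input were 1.43 for PABPN1, 1.48 for PABPC1, 0.67 for PABPC4, 1.37 for PAIP1 and 1.22 for PAIP2. Those of the PABPN IP were 1.81, 1.26 and 1.44 for the first 3 of these genes and changed sign for PAIP1 (0.53) and PAIP2 (0.35). The counts of PCGs became 7813 higher and 85 lower for PABPC against the Input, and 8125 and 56 in the PABPN IP, an alternative chosen after seeing the data. Centring on the 11327 PCGs whose TPM reached 1 in all 3 fractions moved no member's ratio by over 1.5 times but changed 3 calls at the 0.5 limit. For the PABPC IP over the PABPN IP, PABPC4 lost its call (-0.46) and PABPC1 gained it (0.54), and PABPC1 also gained it over the Input (0.55). Adding the TPM of BCL2L2-PABPN1 to PABPN1, chosen after seeing the data, changed none of its calls.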

Other observations

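The counts here were made after the values of PABPN1 were seen. Of the PCGs, 83 had an EPKM at least that of PABPN1 in both the Input and the PABPN IP, PABPN1 included, and their median EPKM in the PABPC IP was 0.237. Of these, 10 were listed at 0 in the PABPC IP, namely EIF2B1, H2BC13, PABPN1, POLE3, PPIH, RFC4, RUVBL2, SMIM30, TMUB1 and YEATS4. Taking abundance instead, 554 PCGs had a PABPC IP TPM at least that of PABPN1, and 70 of them (12.6%) were listed at 0 there. Whether such zeros stand for an absence of edits, or for editing no higher than in the control condition, cannot be told apart from the subtracted values.

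COL1A1 had EPKM values of 0.566 with PABPN, 0.0206 in the Input and 0.0295 with PABPC at a TPM of 4.42 in the PABPN IP. That EPKM was above the 0.309 of PABPC1 in the same fraction, whose TPM was 1115.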
